A study of Homo sapiens with 6 samples.

Results

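Transcripts of glucose transport, glycolysis, gluconeogenesis, lactate handling and the pyruvate dehydrogenase kinases were compared between PLC/PRF/5 cells given an ARD1 plasmid and cells given a control vector. PLC/PRF/5 is an established human hepatoma cell line, and ARD1 is the protein of the NAA10 gene, which acetylates the N-termini of new proteins. Both groups were transfected and collected 48 hours later, and each has 3 libraries of rRNA-depleted RNA from this 1 line. The labels give no further treatment and do not state whether libraries of 1 group were separate cultures. The p-values therefore cover no more than the scatter among the libraries of a group, which may be technical. The members are 37 genes named by their enzyme or transporter, of 25071 genes in the count table. Of these 37, 35 were found by symbol, and SLC2A2 and PCK1 were not analysed here. The low-count filter kept 34, and PKLR, the liver and red cell pyruvate kinase, was left out by it.

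Glycolysis turns glucose into pyruvate in the cytosol, with net gain of ATP and NADH. Glucose enters through SLC2A carriers, is trapped by hexokinases, is committed by phosphofructokinase, and yields pyruvate that is either reduced to lactate and exported or oxidised in mitochondria. Pyruvate dehydrogenase kinases decide on that branch by switching off the pyruvate dehydrogenase complex. The liver can also run the path backwards, through pyruvate carboxylase, phosphoenolpyruvate carboxykinase, fructose bisphosphatase and glucose-6-phosphatase. Many of these genes are known targets of the hypoxia-inducible factors (HIF), and hepatomas commonly replace liver isoforms with broadly expressed ones.

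Library totals ran from 21857327 to 25011357 counts. NAA10, the transfected gene, stood at 35.6, 32.2 and 36.2 CPM in controls and 355.1, 400.2 and 294.1 CPM with ARD1, which goes with the labels, although gene counts do not separate plasmid from chromosomal transcripts. Libraries of 1 group correlated at 0.989 to 0.993 across genes on a log2 CPM scale (counts per 1e6, normalised by TMM), and genes are not replicates. Control replicate 1 lay farther from the remaining controls than they did from each other. Its counts gave chi-square values of 16.0 and 18.5 per degree of freedom against them, compared with 2.86 for controls 2 and 3, and most members had their highest control level in it. Of the 11 hepatocyte and hepatoma markers, albumin (ALB) was at 308, 316 and 321 CPM in controls and 34.3, 40.8 and 33.8 CPM with ARD1, the keratins KRT8 and KRT18 were more abundant by counts, and APOA1 and TTR were under 1 CPM in each library. Of the 9 tested, 6 fell and 3 rose (66.7% and 33.3%), beside 32.2% and 32.4% of all tested genes. The summed level of these 11 markers was 3357 to 4106 CPM in controls and 2018 to 2092 CPM in ARD1 libraries. Sums for the 5 markers each of endothelium, fibroblasts and immune cells were 70.0 to 82.7, 77.5 to 98.1 and 16.1 to 18.7 CPM in controls and 90.2 to 102.8, 17.1 to 19.7 and 8.66 to 9.49 CPM in ARD1 libraries, with TEK, COL1A2, CD68 and CD3E under 1 CPM throughout. These sums pool opposite changes: 3 endothelial markers rose and 1 fell of 4 tested, 1 fibroblast marker rose and 2 fell of 4, and 2 immune markers fell and none rose of 3. The endothelial cadherin CDH5 went from 33.1 ± 2.44 to 0.0677 ± 0.0836 CPM and KDR from 8.53 ± 0.781 to 35.3 ± 4.54 CPM. Of the fibroblast markers, LUM went from 59.8 ± 11.3 to 14.8 ± 0.877 CPM and COL1A1 from 0.565 ± 0.458 to 1.67 ± 0.658 CPM. These genes were named after their values were seen. The part of these markers, and of control replicate 1, in the results was not tested. In bulk RNA, fewer cells of a type and less RNA per cell cannot be told apart.

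Most members were lower in the ARD1 libraries, at nearly every step of the path. Of the 34 tested, 28 fell, 3 rose and 3 did not pass edgeR's quasi-likelihood test (adjusted p under 0.05 over all 15816 genes tested). The background was broad: 64.6% of all tested genes passed, 32.2% as lower and 32.4% as higher, against 82.4% and 8.82% of the tested members. The members' median log2 fold change was -0.80, beside 0.03 over all tested genes. By at least 1 on the log2 scale 15 members fell and 3 rose, where 11.8% and 9.71% of all tested genes did. All 28 falls and all 3 rises were without overlap between the groups' libraries, which held for 34.0% of tested genes as lower and 35.6% as higher. The rises were in HKDC1, SLC16A1 and PDK4, and the falls of more than 2 on the log2 scale in ALDOC, FBP1, SLC16A3 and PGK1. Together the 35 genes took 2.16%, 1.84% and 1.86% of the counts of the control libraries and 0.952%, 1.01% and 0.935% of those of the ARD1 libraries. Without control replicate 1 the counts were 28 lower and 3 higher as well, with a median of -0.75. With library totals in place of TMM factors the median of all genes moved to 0.30 and that of the members to -0.53, with 24 lower and 3 higher, where 22.0% and 48.1% of all genes were lower and higher. With offsets for GC content and transcript length 27 members were lower and 3 higher, where 31.9% and 36.1% of all genes were, and the members' median was -0.68. Library totals made the falls of SLC2A1, HK1, PFKM, PFKFB3, ALDOA, ENO2 and LDHB smaller by over 1.5 times, and the offsets did so for PFKL, GAPDH and ENO2, with each of these still past the threshold.

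**Figure D1:**
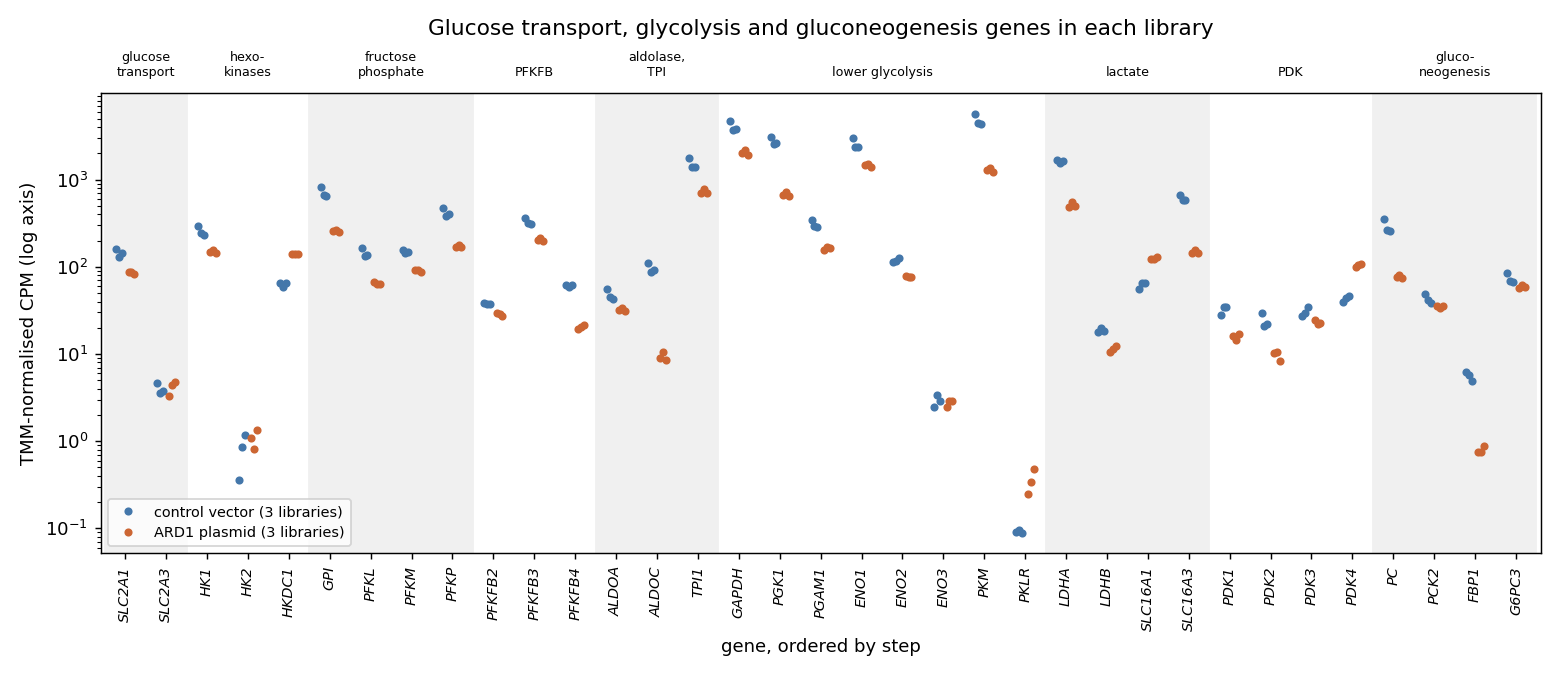
Normalised level of each of the 35 measured genes in each library (y axis, TMM-normalised CPM on a log axis), ordered along the x axis by step, with 3 control vector libraries in blue and 3 ARD1 plasmid libraries in orange. The orange points lie below the blue ones for 28 genes, above them for HKDC1, SLC16A1 and PDK4, and overlap them for SLC2A3, HK2 and ENO3. PKLR, also with orange above blue, is under 1 CPM in all 6 libraries.

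To show the letters ahead of genes that changed in opposite directions, stretches before the transcription start are printed for PGK1 and LDHA, which fell, and for HKDC1 and PDK4, which rose. These 4 were chosen after their values were seen. The sequences are from RefSeq (GRCh38.p14), on the strand of the gene, from 250 bases before the start up to the start or to the first base of any GENCODE 29 exon of the gene. Capitals mark the HIF core motifs ACGTG and GCGTG on either strand.
PGK1, chrX:78103998-78104173, plus strand: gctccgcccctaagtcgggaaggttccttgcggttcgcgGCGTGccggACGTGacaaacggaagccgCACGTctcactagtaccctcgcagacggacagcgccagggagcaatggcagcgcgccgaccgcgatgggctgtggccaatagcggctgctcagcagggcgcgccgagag
LDHA, chr11:18394313-18394387, plus strand: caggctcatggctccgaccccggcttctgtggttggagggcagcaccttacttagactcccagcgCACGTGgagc
HKDC1, chr10:69220082-69220302, plus strand: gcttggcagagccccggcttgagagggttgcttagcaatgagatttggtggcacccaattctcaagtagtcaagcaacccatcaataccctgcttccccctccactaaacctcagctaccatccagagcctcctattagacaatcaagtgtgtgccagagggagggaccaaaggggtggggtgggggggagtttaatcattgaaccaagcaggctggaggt
PDK4, chr7:95596517-95596766, minus strand: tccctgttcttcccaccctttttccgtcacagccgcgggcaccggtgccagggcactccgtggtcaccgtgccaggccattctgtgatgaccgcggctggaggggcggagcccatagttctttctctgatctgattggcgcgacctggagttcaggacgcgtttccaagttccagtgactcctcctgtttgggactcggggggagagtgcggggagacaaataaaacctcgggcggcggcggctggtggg

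On both strands these stretches held 2 ACGTG and 1 GCGTG for PGK1, 2 and 0 for LDHA, and none of either for HKDC1 and PDK4. In that order they are 176, 75, 221 and 250 bases long, so their counts cannot be compared directly. For LDHA only the stretch before its first start is printed. A palindromic E-box, CACGTG, holds ACGTG on each strand and gives both matches of LDHA. RefSeq windows from 250 bases before to 50 after a start were at hand for 33 members, 67 windows in all since many genes have several starts. SLC2A3, PFKFB2, SLC16A1 and PCK1 had no entry. ACGTG was found in 37.3% of the 67 windows and in 21.4% of all 35116 promoter windows, GCGTG in 35.8% and 36.5%, and CACGTG in 16.4% and 7.3%. Of the 58 windows of the members that fell, from 27 genes, 62.1% held ACGTG or GCGTG, beside 48.4% of all windows. So did 3 of the 4 windows of members that did not pass and 1 of the 2 of members that rose. With so few windows outside the fall, the motif cannot be set against direction. The ALDOC window held 3 ACGTG and 2 GCGTG. Whole windows held 3 and 1 for PGK1, 0 and 1 for HKDC1, and 0 and 0 for PDK4. For LDHA they held 5 and 1 at its first start and 0 and 1 at the other. Windows of 1 gene can overlap, and a match describes the letters, not a bound site.

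The transcript of the main glucose carrier fell. SLC2A1 (GLUT1), the broadly expressed glucose carrier, was at 159.2, 129.6 and 145.1 CPM in controls and 87.0, 86.8 and 82.3 CPM with ARD1. All 3 ARD1 libraries lay below all controls (log2 change -0.76, SE 0.0809, adjusted p = 1.12e-06). SLC2A3 (GLUT3), a high-affinity carrier, was near the low end of the members at 4.69, 3.61 and 3.82 CPM in controls and 3.26, 4.42 and 4.75 CPM with ARD1, and its groups overlapped (log2 change 0.04, adjusted p = 0.859). Per kilobase of exon SLC2A1 made up 97.8% to 98.0% of the sum of these carriers in controls and 95.8% to 97.2% in ARD1 libraries.

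The hexokinases, which phosphorylate glucose, moved in opposite directions. HK1, the housekeeping isoform, fell from 257 ± 34.2 to 149 ± 6.33 CPM (SD, n = 3; log2 change -0.78, SE 0.0880). HKDC1, a member of the hexokinase family (chr10:69220303-69267559 in GENCODE 29 on GRCh38, as for all gene positions here), stood at 64.5, 59.2 and 65.4 CPM in controls and 139.8, 139.2 and 139.8 CPM with ARD1. It was higher in all 3 ARD1 libraries, whose values differed by less than 1 CPM (log2 change 1.15, SE 0.0709, adjusted p = 3.24e-09). HK2, the isoform common in tumours, was barely counted, with 8, 18 and 26 counts in controls and 26, 22 and 33 with ARD1, and did not pass (log2 change 0.43, adjusted p = 0.338). Control replicate 1 was the lowest for HK2, and without it the value was 0.08. Within a library the HKDC1 to HK1 ratio does not depend on scaling, and it was higher by 1.92 on the log2 scale. Per kilobase of exon, HKDC1 made up 24.4, 26.2 and 29.5% in controls and 58.0, 56.7 and 58.8% with ARD1 of the summed level of the 3 hexokinases. That sum overlapped between the groups, going from 55.7 ± 5.55 to 56.7 ± 0.888 CPM per kilobase. Both the shares and the sum depend on the exon lengths used, 6296 bases for HK1 and 4259 for HKDC1. By CPM HK1 stayed above HKDC1 in each ARD1 library, at 149 ± 6.33 and 139.6 ± 0.353 CPM.

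All 4 genes for the steps from glucose 6-phosphate to fructose 1,6-bisphosphate fell, where 32.2% of all tested genes did. GPI, the isomerase, was at 816, 658 and 648 CPM in controls and 256, 263 and 253 CPM with ARD1 (log2 change -1.46, SE 0.0867, adjusted p = 2.15e-09). PFKP, the platelet-type phosphofructokinase and the isoform with the highest level per kilobase, fell from 419 ± 46.6 to 170.4 ± 5.80 CPM (log2 change -1.30, SE 0.0815). The liver-type PFKL went from 144 ± 17.9 to 64.6 ± 1.42 CPM (-1.16, SE 0.0867) and the muscle-type PFKM from 149 ± 6.42 to 90.7 ± 3.38 CPM (-0.72, SE 0.0699). All 3 subunit genes were without overlap. Per kilobase PFKM took 15.6, 17.4 and 16.9% in controls and 23.1, 22.5 and 22.2% with ARD1 of this family. The PFKM to PFKL ratio was higher (log2 difference 0.43) and the PFKP to PFKL ratio lower (-0.14). These ratios were taken without GC and length offsets. With the offsets the changes of PFKL, PFKM and PFKP came to -0.74, -0.65 and -0.99, so that PFKM and PFKL changed by similar amounts.

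PFKFB enzymes make and break fructose 2,6-bisphosphate, the strongest activator of phosphofructokinase. All 3 genes fell, where 32.2% of all tested genes did. PFKFB4 was at 61.7, 58.1 and 61.8 CPM in controls and 19.4, 20.3 and 21.8 CPM with ARD1 (log2 change -1.56, SE 0.0832, adjusted p = 6.60e-10). PFKFB3, the isoform with the highest kinase activity and the most abundant here, fell from 329 ± 26.3 to 205 ± 6.56 CPM (log2 change -0.69, SE 0.0732). PFKFB2 fell least of the 3, from 37.9 ± 0.667 to 28.7 ± 1.21 CPM (log2 change -0.40, SE 0.0813, adjusted p = 0.000564). With library totals it no longer passed (-0.13, adjusted p = 0.141, over its alternatives 2.77e-07 to 0.141). With GC and length offsets the change of PFKFB2 was -0.55 and that of PFKFB3 -0.50, so PFKFB2 was then not the least lowered. The PFKFB4 to PFKFB3 ratio was lower, with a log2 difference of -0.88.

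The aldolases, which split the 6-carbon sugar, held the widest change among the members. ALDOC, the brain-type aldolase (chr17:28573115-28577264), was at 109, 86.2 and 90.7 CPM in controls and 9.04, 10.5 and 8.58 CPM with ARD1. That is a 10.2-fold lower level, with no overlap between the groups (log2 change -3.34, SE 0.112, adjusted p = 5.14e-12). ALDOA, the muscle-type and usually dominant aldolase, went from 48.0 ± 6.52 to 32.1 ± 1.28 CPM (log2 change -0.58, SE 0.0978). Its level is uncertain, because 42.3% of its exon bases lie in exons of AC093512.2 (ENSG00000285043) on the same strand (GENCODE 29, chromosome 16) and how reads of shared exons were counted is not stated. That gene was at 0.604 to 1.59 CPM and did not pass. The ALDOC to ALDOA ratio was lower, with a log2 difference of -2.77. TPI1, which interconverts the triose phosphates, was at 1780.2, 1377.8 and 1412.4 CPM in controls and 710.8, 773.1 and 708.0 CPM with ARD1 (log2 change -1.06, SE 0.0923, adjusted p = 1.36e-07).

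**Figure D2:**
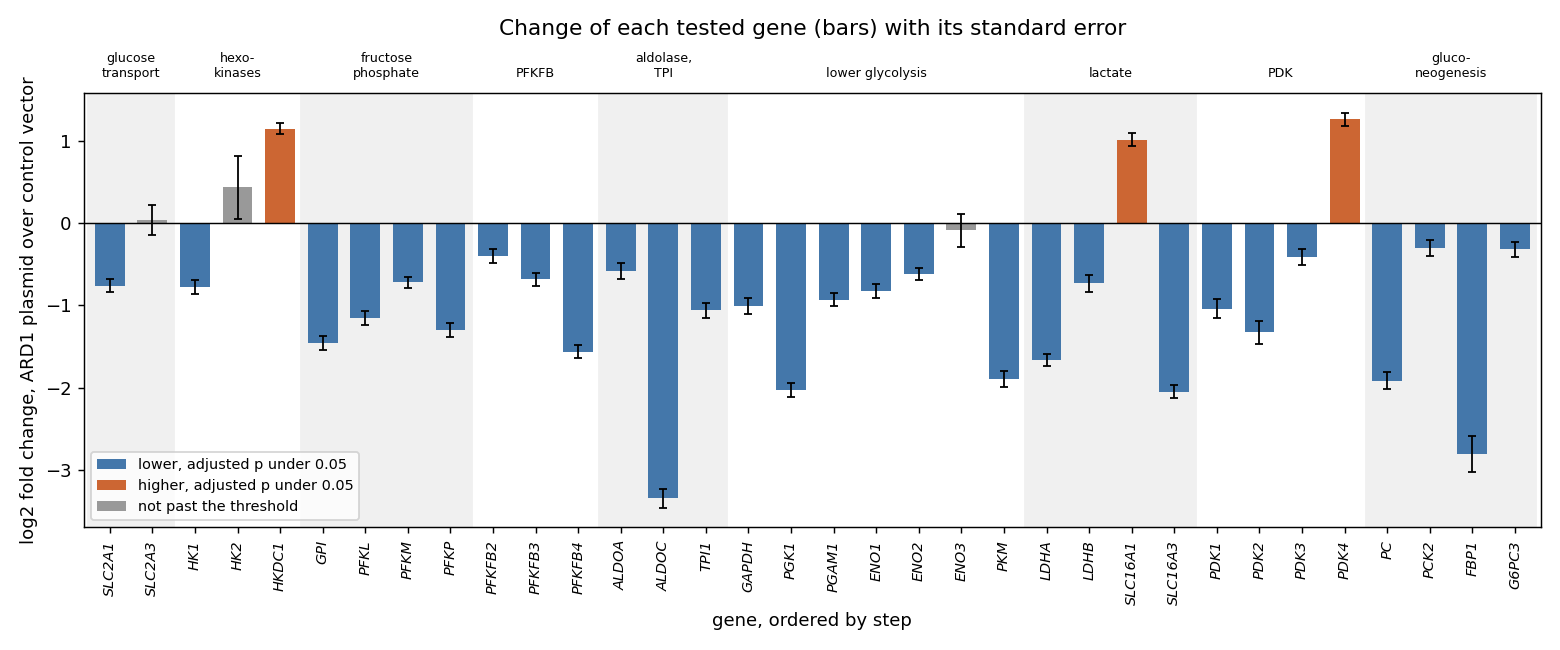
Log2 fold change of ARD1 plasmid over control vector for the 34 tested genes (y axis), ordered by step on the x axis, with bars coloured by the edgeR call and error bars showing 1 standard error. Bars point down for 28 coloured genes, deepest for ALDOC at -3.34, and up for HKDC1, SLC16A1 and PDK4.

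The later steps, from glyceraldehyde phosphate to pyruvate, held the members with the most CPM, before any division by length. Of their 7 tested genes 6 fell, where 32.2% of all tested genes did. PGK1, the first ATP-making step (chrX:77910739-78129296), was at 3104, 2538 and 2615 CPM in controls and 658, 715 and 655 CPM with ARD1. The groups stood far apart (log2 change -2.02, SE 0.0855, adjusted p = 5.10e-11). PKM, the pyruvate kinase of most tissues and tumours, was at 5682, 4404 and 4344 CPM in controls and 1291, 1359 and 1226 CPM with ARD1 (log2 change -1.90, SE 0.0988, adjusted p = 5.02e-10). GAPDH, often used as a loading reference, was at 4761, 3703 and 3756 CPM in controls and 1999, 2164 and 1928 CPM with ARD1. It fell 2.01-fold (log2 change -1.005, adjusted p = 3.02e-07), and with GC and length offsets the log2 change was -0.67. ENO1, the main enolase, went from 2586 ± 337 to 1464 ± 57.5 CPM (log2 change -0.82, SE 0.0869), PGAM1, the mutase before it, from 308 ± 30.0 to 162 ± 5.11 CPM (-0.93, SE 0.0775), and ENO2, the neuronal enolase, from 118 ± 5.82 to 76.9 ± 0.895 CPM (-0.62, SE 0.0700). ENO3, the muscle enolase, was at 2.93 ± 0.483 and 2.75 ± 0.245 CPM, with overlapping groups (log2 change -0.09, adjusted p = 0.714). PKLR had 2, 2 and 2 counts in controls and 6, 9 and 12 with ARD1, under 1 CPM in each, and was tested only without a filter (log2 change 1.89, adjusted p = 0.0479). Of its exon bases 17.6% lie opposite exons of HCN3. Gene counts do not separate the PKM1 and PKM2 splice forms.

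Control replicate 1 was the highest library for GAPDH, PGK1, PKM, ENO1 and PGAM1. Without it their log2 fold changes were -0.89, -1.94, -1.77, -0.72 and -0.86. GENCODE 29 names 62 pseudogenes after GAPDH, 13 after PGAM1, 6 after LDHA, 5 after PKM, 4 each after TPI1 and ENO1, 3 each after LDHB and SLC2A3, and fewer after 4 other members. None of them has a row in the count table, and how reads that fit both a copy and its parent were counted is not stated, so the counts of these 12 parent genes are uncertain to that extent.

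Per kilobase of exon, the order of the abundant genes differed between the groups. The length is that of all annotated exons of a gene merged, and the order within a group depends on that choice. Among controls GAPDH led at 1366 ± 200.03 CPM per kilobase (SD, n = 3), followed by TPI1 at 564 ± 82.6, PKM at 561 ± 88.2, PGK1 at 499 ± 55.7 and ENO1 at 490.2 ± 63.9, 4 values whose spreads overlapped. LDHA came next at 261 ± 10.9 and PGAM1 at 120.1 ± 11.7. In ARD1 libraries GAPDH was at 681 ± 40.6, ENO1 and TPI1 at 278 ± 10.9 and 271 ± 13.6, whose spreads overlapped, and then PKM at 151 ± 7.72, PGK1 at 123 ± 6.11, LDHA at 82.6 ± 5.42 and PGAM1 at 63.0 ± 1.99. PGK1 and PKM, whose spread overlapped that of ENO1 in the controls, were below it with ARD1.

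Both lactate dehydrogenase genes fell, while the lactate carriers changed in opposite directions. LDHA, the lactate dehydrogenase subunit that favours lactate formation, was at 1690.0, 1554.3 and 1625.9 CPM in controls and 485.8, 550.6 and 502.3 CPM with ARD1 (log2 change -1.66, SE 0.0732, adjusted p = 7.85e-11). LDHB, which favours the reverse reaction, was low at 18.1, 20.01 and 18.5 CPM in controls and 10.4, 11.3 and 12.4 CPM with ARD1 and fell (log2 change -0.73). Of LDHB exon bases 33.4% lie in exons of AC010197.2 on the same strand, so its level is uncertain. SLC16A3 (MCT4), the lactate exporter of glycolytic cells (chr17:82228397-82261129), was at 667, 582 and 578 CPM in controls and 143, 156 and 143 CPM with ARD1. It fell 4.13-fold (log2 change -2.05, SE 0.0781, adjusted p = 1.87e-11). SLC16A1 (MCT1), the widely expressed carrier that moves lactate either way (chr1:112911847-112957013), was at 55.8, 64.5 and 65.7 CPM in controls and 123, 121 and 131 CPM with ARD1 and rose 2.02-fold (log2 change 1.01, SE 0.0795, adjusted p = 4.32e-08). Per kilobase of exon SLC16A1 made up 12.4, 15.8 and 16.1% in controls and 59.3, 56.9 and 60.8% with ARD1 of these carriers. By CPM SLC16A3 stayed above SLC16A1 with ARD1 (147 ± 7.43 and 125 ± 5.07 CPM). Which carrier is the larger there thus depends on the exon lengths used, 8995 bases for SLC16A3 and 5312 for SLC16A1. The SLC16A3 to SLC16A1 ratio was lower, with a log2 difference of -3.06, while their summed level went from 79.3 ± 4.59 to 39.9 ± 0.737 CPM per kilobase.

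Pyruvate dehydrogenase kinases were divided, with 3 lower and 1 higher, where 32.2% and 32.4% of all tested genes were. PDK4, the isoform induced by fasting in liver and muscle (chr7:95583499-95596491), was at 39.2, 43.7 and 46.5 CPM in controls and 99.3, 104 and 107 CPM with ARD1. Every ARD1 library was above every control (log2 change 1.26, SE 0.0806, adjusted p = 4.58e-09). PDK1, a known HIF target, went from 32.5 ± 4.17 to 15.8 ± 1.31 CPM (log2 change -1.04, SE 0.110), PDK2 from 24.3 ± 4.80 to 9.70 ± 1.25 CPM (-1.33, SE 0.141) and PDK3 from 30.6 ± 3.52 to 23.0 ± 1.27 CPM (-0.41, SE 0.0998). Control replicate 1 had the lowest PDK1 and the highest PDK2 of the controls, and without it the values were -1.15 and -1.17. PDK3 did not pass with library totals (-0.15, adjusted p = 0.227, over its alternatives 2.25e-06 to 0.227). Of PDK2 exon bases 38.6% lie opposite exons of SAMD14. Per kilobase PDK4 made up 40.2, 44.2 and 43.5% in controls and 73.6, 75.8 and 76.6% with ARD1 of the 4 kinases. Their summed level went from 22.3 ± 1.13 to 30.3 ± 0.488 CPM per kilobase.

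**Figure D3:**
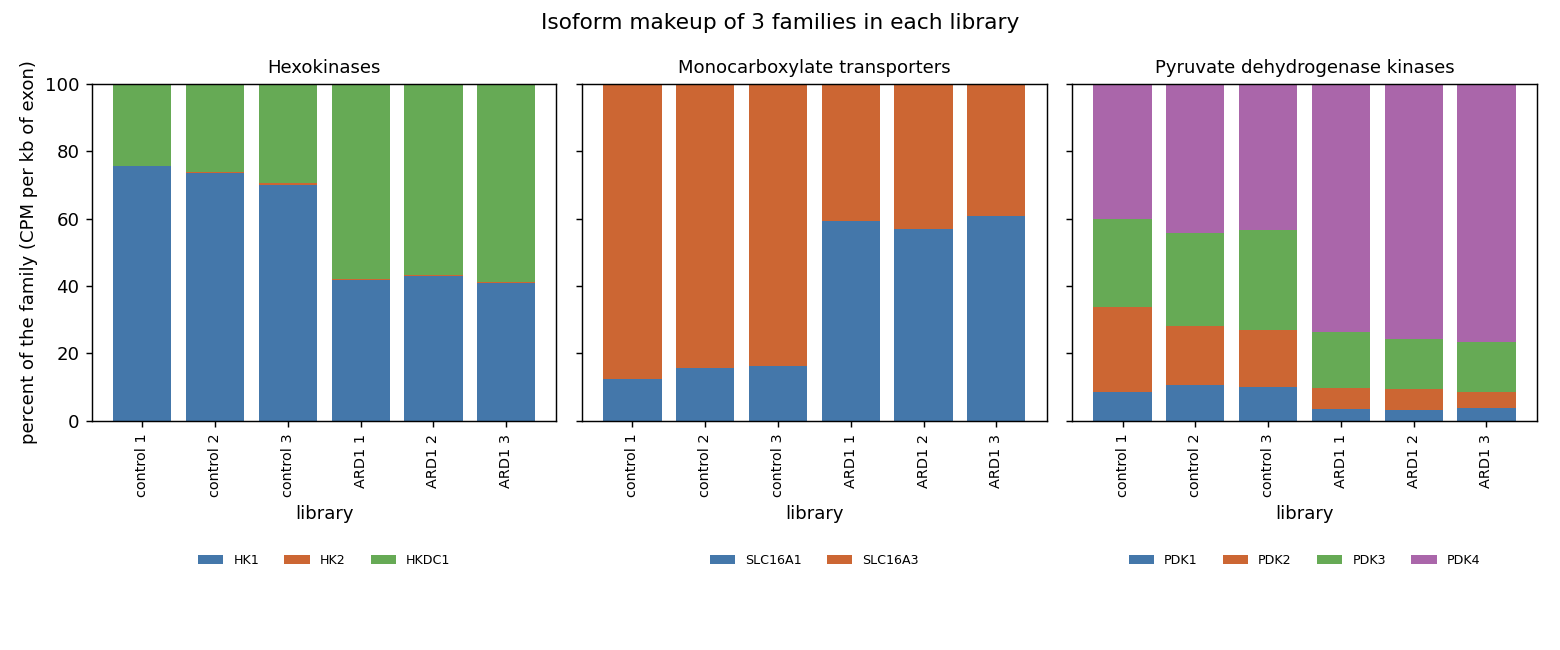
Makeup of the hexokinases, monocarboxylate transporters and pyruvate dehydrogenase kinases in each of the 6 libraries (x axis), as stacked percent of the summed CPM per kilobase of exon (y axis, 0 to 100). HKDC1 goes from 24.4% to 29.5% of hexokinases in controls to 56.7% to 58.8% in ARD1 libraries, SLC16A1 from 12.4% to 16.1% to 56.9% to 60.8%, and PDK4 from 40.2% to 44.2% to 73.6% to 76.6%. The shares depend on the exon lengths used. By CPM, HK1 and SLC16A3 stay above HKDC1 and SLC16A1 in each ARD1 library.

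Genes of the reverse path were lower too, with 4 of 4 tested members past the threshold, where 32.2% of all tested genes were lower. Of these members, G6PC3 and PCK2 lost the call under another scaling. PC, the mitochondrial enzyme that turns pyruvate into oxaloacetate, was at 352, 263 and 258 CPM in controls and 75.7, 80.9 and 75.0 CPM with ARD1 (log2 change -1.91, SE 0.106, adjusted p = 9.78e-10). FBP1, the liver fructose bisphosphatase that undoes the phosphofructokinase step (chr9:94603133-94640249), was at 6.23, 5.70 and 4.85 CPM in controls and 0.753, 0.750 and 0.886 CPM with ARD1. Counts were 108 to 137 and 18 to 22 per library, and the groups did not overlap (log2 change -2.80, SE 0.213, adjusted p = 3.05e-08). G6PC3, the broadly expressed glucose-6-phosphatase, went from 73.2 ± 10.2 to 58.7 ± 2.42 CPM (log2 change -0.32, SE 0.0933, adjusted p = 0.00768), and with library totals it did not pass (-0.05, adjusted p = 0.604, over its alternatives 0.00176 to 0.604). Without control replicate 1 its log2 change was -0.21. PCK2, the mitochondrial carboxykinase, went from 42.7 ± 5.26 to 34.7 ± 1.11 CPM (log2 change -0.30, SE 0.0942, adjusted p = 0.0117). It did not pass with library totals (-0.03, adjusted p = 0.754) or without ARD1 replicate 2 (-0.27, adjusted p = 0.0547) and had the opposite sign with GC and length offsets (0.13, adjusted p = 0.0896, over its alternatives 0.00265 to 0.754).

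Isoform ratios within a library were compared for 16 pairs of the 18 listed. In 9 the ratio was higher and in 5 lower in all ARD1 libraries than in all controls, and in 2, ENO2 to ENO1 and PDK2 to PDK1, the groups overlapped. With 3 libraries against 3 an exact two-sided permutation test cannot go below 0.10, so none could pass, and the 14 pairs without overlap had p = 0.1 and p = 0.114 after Benjamini-Hochberg adjustment over the 16. The differences of SLC16A3 to SLC16A1 (-3.06), ALDOC to ALDOA (-2.77), PDK4 to PDK1 (2.30) and HKDC1 to HK1 (1.92) were each more than 5 times the larger SD of their groups. The low-count genes PKLR, HK2, SLC2A3 and ENO3 also had higher ratios to their abundant relatives PKM (3.56), HK1 (1.32), SLC2A1 (0.78) and ENO1 (0.73), as did LDHB to LDHA (0.93). Without control replicate 1 the HK2 to HK1 difference was 0.75. No ratio was computed with GC and length offsets. The PFKFB3 to PFKFB2 ratio was among the lower ones (-0.28), but with offsets PFKFB3 fell less than PFKFB2 (-0.50 and -0.55). PFKM and PFKL, whose ratio was higher, changed by similar amounts with offsets (-0.65 and -0.74).

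Other genes of glucose handling did not share the one-sided fall. Of 49 listed, 43 were found and 30 tested, of which 10 rose, 11 fell and 9 did not pass, with a median of -0.09. These were 33.3% higher and 36.7% lower, beside 32.4% and 32.2% of all tested genes. SLC2A6, a lysosomal hexose carrier, went from 54.2 ± 2.45 to 6.12 ± 0.189 CPM (log2 change -3.14, SE 0.0953), SLC37A4, which carries glucose 6-phosphate into the endoplasmic reticulum, from 32.7 ± 2.28 to 9.12 ± 0.731 CPM (-1.84, SE 0.103), and PGM1, which links glycogen to glycolysis, from 109 ± 10.5 to 43.3 ± 3.77 CPM (-1.34, SE 0.0901). LDHD (-2.52), the sodium-coupled carrier SLC5A1 (-2.17) and SLC2A12 (-1.33) also fell. GCKR, a regulatory protein of liver glucose handling, rose from 2.42 ± 0.118 to 20.4 ± 0.870 CPM (3.08, SE 0.125). TIGAR, which breaks down fructose 2,6-bisphosphate, rose from 3.22 ± 0.789 to 9.28 ± 0.974 CPM (1.53, SE 0.174). PDP1, a phosphatase that reverses the pyruvate dehydrogenase kinases, rose (log2 change 0.74, SE 0.0958), as did PDPR (0.61), while PDP2 did not pass (0.03). PDHA1 (-0.35), PDHB (-0.52) and PDHX (-0.48) of the complex fell, and DLAT (0.11) and DLD (-0.005) did not pass. With library totals PDHA1 and PDHX did not pass, and PDP2, DLAT and DLD passed as higher. DLD passed as lower with GC and length offsets (-0.18, adjusted p = 0.00398) and without control replicate 1 (-0.12, adjusted p = 0.0278). Its direction thus depends on the processing. All of these were named after their values were seen. With library totals the split of this list was 15 higher and 7 lower, and with GC and length offsets 11 and 14.

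HIF subunits, their oxygen sensors and HIF targets outside glycolysis were mixed. Of 18 tested, 6 fell, 4 rose and 8 did not pass. That is 33.3% lower and 22.2% higher, beside 32.2% and 32.4% of all tested genes. The median of 0.02 moved to 0.28 with library totals (5 lower, 9 higher) and to -0.04 with GC and length offsets (8 lower, 3 higher). CA9 (-4.57), the oxygen sensor EGLN3 (-2.99), NDRG1 (-1.87) and ADM (-1.18) fell by more than 1. The remaining genes that passed were named after their values were seen: HIF1A (-0.52) and P4HA1 (-0.42) fell, and VHL (0.22), HIF1AN (0.24), VEGFA (0.27) and P4HA2 (0.60) rose. Of these, P4HA1 did not pass with library totals (-0.16, adjusted p = 0.179, over its alternatives 6.05e-11 to 0.179), nor HIF1AN with GC and length offsets (0.09, adjusted p = 0.174, over its alternatives 2.39e-05 to 0.174). The adjusted p of VHL ranged from 2.15e-05 to 0.0954 over its alternatives. The HIF subunits EPAS1 (-0.01) and ARNT (0.05) did not pass, nor did the oxygen sensors EGLN1 (0.04) and EGLN2 (0.08). BNIP3 (0.03), BNIP3L (-0.05), ANKRD37 (0.15) and KDM3A (0.002), the rest of the list, did not pass either. Among 15 listed transcriptional regulators of glucose genes 14 were tested, and 5 rose and 4 fell. Their shares were 35.7% higher and 28.6% lower, beside 32.4% and 32.2% of all tested genes. With library totals 8 rose and 4 fell, and with the offsets 7 and 3. TXNIP, an inhibitor of glucose uptake induced by glucose, rose from 185 ± 9.46 to 710.1 ± 47.3 CPM (1.94, SE 0.0749), its relative ARRDC4 from 17.7 ± 2.48 to 92.1 ± 3.60 CPM (2.38, SE 0.0982), and KLF10 from 155 ± 9.20 to 340.5 ± 13.3 CPM (1.13, SE 0.0709).

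**Figure D4:**
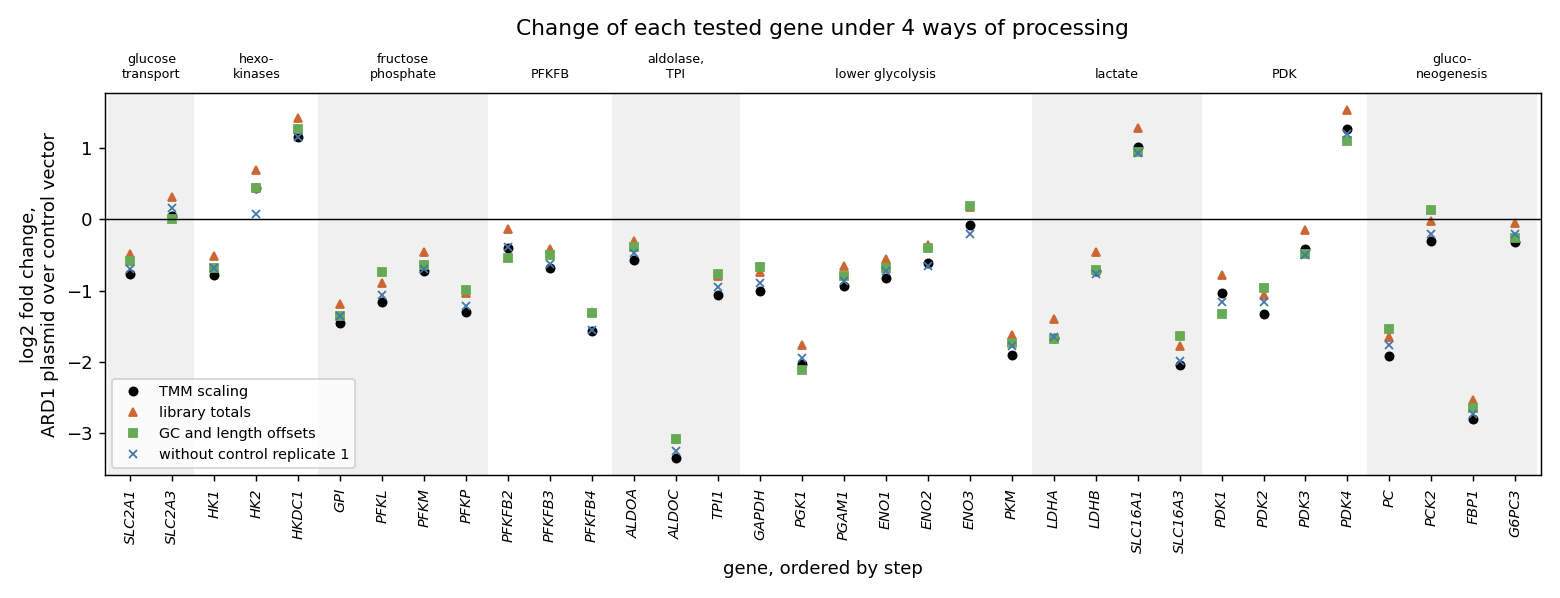
Log2 fold change of each of the 34 tested genes (y axis) by step (x axis) under TMM scaling (circles), library totals (triangles), GC and length offsets (squares) and without control replicate 1 (crosses). Triangles lie above circles throughout, and the symbols of PCK2, SLC2A3 and ENO3 lie on both sides of 0.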

How the data were processed

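The authors deposited 1 table with raw counts of reads by Ensembl gene in the 6 libraries. Per the labels' protocols, RNA was Trizol-extracted, rRNA-depleted and made into directional libraries. Per the submitters' processing notes, cutadapt 4.6, STAR 2.7.11b and GRCh38 were used, while no source used here names the counting program, strand setting or annotation. Groups and replicate numbers came from the sample titles. The comparison used edgeR 4.0.16 (R 4.3.3): filterByExpr (15816 genes kept), TMM scaling, the quasi-likelihood test on all 6 libraries, and Benjamini-Hochberg adjustment over all tested genes at 0.05. SE was taken from the F statistic. CPM are TMM-normalised. Levels between genes are per kilobase of GENCODE 29 exon, with all annotated exons of a gene merged. This length can exceed that of the transcripts expressed here, so shares and sums within a family depend on it. Isoform ratios are log2 of counts plus 0.5. At this depth 3 counts equal 0.120 to 0.137 CPM, and counts are not independent molecules.

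Alternatives were RLE, upper-quartile and total-count scaling, DESeq2 1.42.0, limma-voom (limma 3.58.1), other filters, a replicate block, offsets from a loess curve on GC content and length (span 0.5), each library left out, and a log2 change of at least 1. The fits were also run on simulated counts with few changed genes and the same dispersion for every gene. These data differ in both respects, so that run does not bear on the scaling or calls here. All 37 members are named, and from the other lists up to 8 genes past the threshold that changed by at least 1. The HIF list is named in full. Members and lists were chosen with earlier results of these data known.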

Additional observations from a re-analysis of the deposited data

How the results depend on the processing

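Over 16 alternatives and 34 members, 527 of 544 values kept direction and side of the threshold, 5 were no longer past it (PFKFB2, PDK3, PCK2 and G6PC3) and 12 changed sign (SLC2A3, ENO3 and PCK2), and the cause was not tested. Requiring a log2 change of at least 1 left 15 members lower, and 1870 genes lower and 1536 higher of all tested. SLC2A3 came to -0.004 with GC and length offsets, -0.007 with the block added, and -0.064 to 0.186 over the fits that leave out 1 library. ENO3 came to 0.17 with library totals, 0.19 with offsets, 0.19 with block and offsets and -0.212 to 0.01 over the fits that leave out 1 library. PCK2 came to 0.13 with offsets and 0.14 with block and offsets. Leaving out 1 library each gave 27 to 28 members lower and 3 higher.

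With the replicate number as a block 28 members were lower and 3 higher, and 5203 and 5090 of all genes were higher and lower. Same-numbered libraries deviated from their group means with correlations of 0.017, -0.036 and 0.034, beside -0.069 to 0.050 for differently numbered ones. No pairing by number was seen in these values. The labels do not say what the number marks, and such values cannot exclude that same-numbered libraries were handled together. The offsets remove any change that follows GC content or length, whatever its source. At this depth HK2, SLC2A3, ENO3 and PKLR rest on few counts, and a difference in them may not be detectable.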
